A study of Mus musculus with 8 samples.

Results

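Molecular chaperones and the unfolded protein response were described through the 140 probes, of 97 genes, whose names follow those of the heat shock proteins, J proteins, CCT chaperonin subunits and protein disulfide isomerases, or are one of Hyou1, Atf3, Atf4, Atf6, Ddit3, Xbp1, Trib3, Herpud1, Eif2ak3 and Ern1. Hspg2, a matrix proteoglycan with a similar name, was left out. The arrays held 39429 probes of 30222 gene names. The members were picked by name, with earlier results of these data known.

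The cells were NMuMG-NT2197, a mouse mammary epithelial line derived from NMuMG. In 4 samples they carried a cDNA of ShcA R175Q. ShcA is an adaptor protein, and this form has an arginine changed to glutamine in its phosphotyrosine-binding domain. In the other 4 samples, which the labels title nT, they carried a wild-type ShcA cDNA. Both cDNAs were in a pMSCV/hygro expression vector, and the labels do not state whether the cells of a group came from 1 clone or still made their own ShcA. On every array Cy3 labelled the amplified RNA of 1 sample and Cy5 the RNA of a common reference, and a value below is log2 of Cy3 over Cy5. Whether the replicates came from separate cultures is not stated in the labels, and the p-values therefore measure the spread between these arrays, which may be technical.

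Chaperones bind unfolded protein and help it fold. In the cytosol HSP70 proteins work with J proteins, which stimulate their ATPase, and with HSP90, and the cytosolic set is induced by heat shock factors. In the endoplasmic reticulum (ER) the HSP70 protein is BiP, the product of Hspa5, and disulfide isomerases join cysteines. When unfolded protein builds up there, 3 membrane sensors respond. IRE1, from Ern1, splices the mRNA of the transcription factor Xbp1. ATF6 is cut to release a transcription factor, and PERK, from Eif2ak3, slows translation while raising ATF4, which in turn induces Ddit3 (CHOP), Atf3 and Trib3. Cleavage of ATF6 and phosphorylation by PERK act on protein, which an expression array does not read.

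The promoters of the ER members are shown because several hold a known response element. Sequences are those of RefSeq for GRCm38.p6, 5′ to 3′ on the gene's strand, and capitals mark matches to a searched motif. The ER stress response element (ERSE) was searched as CCAAT and CCACG with any 9 bases between them, on both strands of the 250 bases before each start.
Hspa5, BiP, chr2:34771920-34772059, plus strand: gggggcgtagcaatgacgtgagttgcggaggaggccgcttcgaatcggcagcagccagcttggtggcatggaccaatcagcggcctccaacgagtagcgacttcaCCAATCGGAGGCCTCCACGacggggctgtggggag
Dnajc3, an ER J protein, chr14:118937807-118937866, plus strand: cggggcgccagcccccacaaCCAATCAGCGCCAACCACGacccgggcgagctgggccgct
Pdia6, a disulfide isomerase, chr12:17266444-17266523, plus strand: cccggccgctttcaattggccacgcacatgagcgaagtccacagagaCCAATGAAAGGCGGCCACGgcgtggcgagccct
Hsp90b1, the HSP90 of the ER, chr10:86705515-86705674, minus strand: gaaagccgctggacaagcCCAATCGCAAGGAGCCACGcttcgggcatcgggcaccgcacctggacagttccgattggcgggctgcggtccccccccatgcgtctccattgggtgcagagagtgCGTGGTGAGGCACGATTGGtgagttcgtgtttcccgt
Herpud1, an ER membrane protein of protein degradation, chr8:94386304-94386398, plus strand: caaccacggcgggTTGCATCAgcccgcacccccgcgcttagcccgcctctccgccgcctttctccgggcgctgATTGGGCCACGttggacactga

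Hspa5, Dnajc3, Pdia6 and Hsp90b1 were the 4 with an ERSE among 80 member genes in the RefSeq promoter table, or 5.0%, against 35 of 27025 genes in all, or 0.13%. In Herpud1 the capitals mark an ERSE-II, searched as ATTGG and CCACG with any 1 base between them, which 1 member gene (1.25%) and 10 genes in all (0.037%) held, and a C/EBP-ATF response element. That element, searched as TGATGNAA with N for any base, stood in the windows of Atf3, Herpud1 and Hspa14, or 3.75% of member genes against 3.91% of all. The UPR element TGACGTGG was found in Dnajc25 alone among the members, or 1.25% against 0.603% of all genes. A heat shock element, searched as GAA, TTC and GAA, or TTC, GAA and TTC, each with any 2 bases between, stood before Dnajb6, Hspd1 and Hspe1, or 3.75% of member genes against 0.514% of all. Hspd1 and Hspe1 encode the mitochondrial chaperonin and its lid and lie head to head, so they share the region shown for Hspd1.
Hspd1, mitochondrial chaperonin, chr1:55088048-55088087, minus strand: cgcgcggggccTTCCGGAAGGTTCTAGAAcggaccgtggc
Of the 8 genes with a rise described below and a promoter in the table, Dnajc3 and Hspa5 held an ERSE. A match describes letters in a window and is not a measured binding site.

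Of the 140 probes, 118 of 83 genes could be tested. Among the other 22, 20 were too dim, being well above the Cy3 background on fewer than 4 of 8 arrays, Dnajb8 was dim and also marked unreliable on an array, and a second Atf4 probe was bright but marked unreliable. The 14 genes with no tested probe included Pdia2, Hspa1l, Hspb3 and Hspb7. Between 53.7% and 63.0% of all spots stood well above background in Cy3, no spot was saturated, and the number of arrays limits the precision.

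The question was which of these transcripts differ between cells with ShcA R175Q and cells with wild-type ShcA. In R175Q cells 14 member probes of 12 genes rose and 4 probes of 4 genes fell, at a limma adjusted p under 0.05 over all 22849 probes tested. The rises were those of Dnaja4, Dnaja1, Dnajc12, Dnajc10, Dnajc3, Dnajc15, Hspa5, Hspa13, Hspb8, Hspb2, Atf6 and Xbp1, and the falls those of Hspa8, Dnaja2, Dnajc5 and Dnajc4. This is 15.3% of the member probes, against 18.6% of all probes tested, of which 8.95% rose and 9.68% fell. The share of members called was thus near that of the whole array, and what follows describes which members they were.

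The differences were small. The median over the 118 probes was 0.0025 on the log2 scale, against −0.016 over all probes tested. The median size, without sign, was 0.136, against 0.109 over all probes. Of the called members, 1 probe, of Dnaja4, differed by at least 1.5-fold and 0 by at least 2-fold, while 956 and 207 of all called probes did. Groups did not overlap for 27 member probes, 17 with R175Q above and 10 with R175Q below, where 23.4% of all probes were so separated, 11.2% above and 12.2% below. Of these 27 probes, 15 were called and 12 were not.

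**Figure D1:**
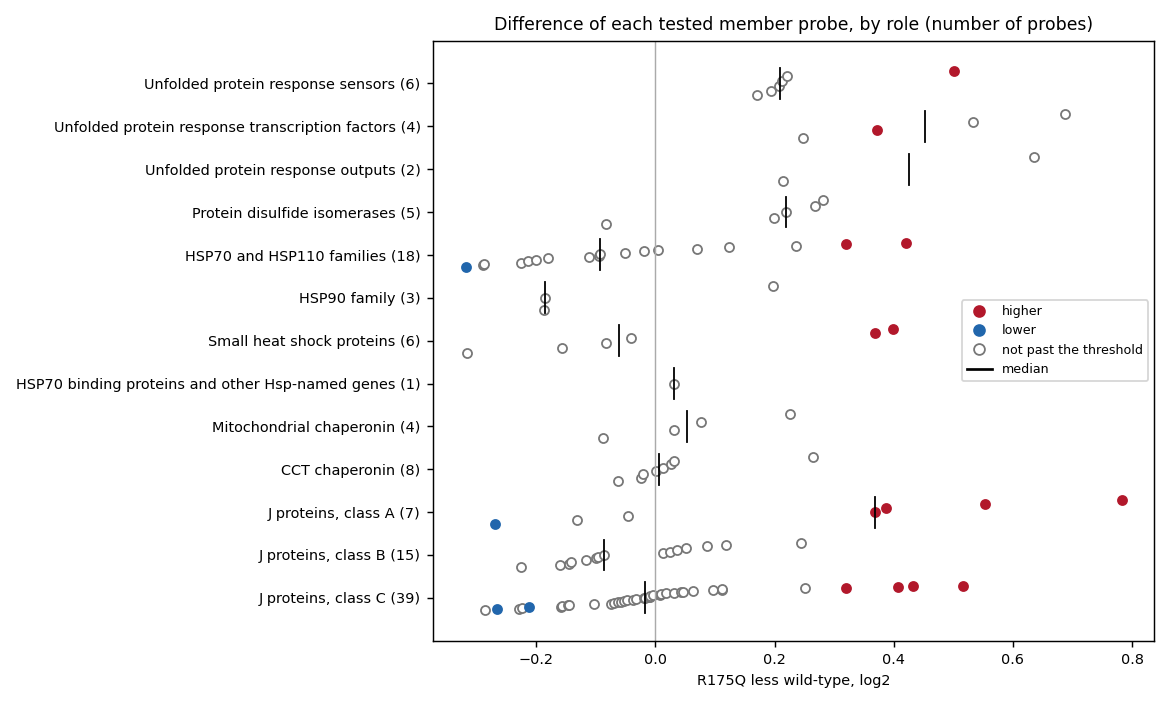
Each point is 1 of the 118 tested member probes, placed by its difference, R175Q less wild-type on the log2 scale, and grouped by role, with the number of probes in brackets. Filled points passed the threshold, and the black bar is the median of a role. All 12 probes of the unfolded protein response lie right of 0, and the called J proteins lie on both sides.

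The largest rise was in class A of the J proteins, which carry the full set of J protein domains and hand clients to HSP70. Dnaja4 stood at 0.97, 1.02, 1.16 and 1.06 on the arrays of R175Q replicates 1 to 4, against 0.25, 0.15, 0.46 and 0.22 on those of wild-type replicates 1 to 4, for the probe on chromosome 9 at 54564061 to 54564120 (mm9). All R175Q values lay above all wild-type values, and the difference was 0.78 ± 0.08, or 1.72-fold (SE, n = 4 per group, limma adjusted p = 8.87e-05). A second Dnaja4 probe, at 54553902 to 54553961, differed by 0.55 ± 0.08 (adjusted p = 0.000867), and its groups were separate too.

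Both probes of Dnaja1, a farnesylated J protein of the cytosol, were also higher. The brighter probe stood at 0.96, 1.04, 1.10 and 1.19 in R175Q, against 0.66, 0.75, 0.61 and 0.70 in wild-type cells, a difference of 0.39 ± 0.06 (adjusted p = 0.00233). The other differed by 0.37 ± 0.07 (adjusted p = 0.00395), and neither probe's groups overlapped. Dnaja2, a close relative in the same compartment, went the other way. One of its probes stood at 1.01, 1.06, 0.98 and 1.10 in R175Q, against 1.34, 1.20, 1.24 and 1.45 in wild-type cells, and fell by 0.27 ± 0.07 (adjusted p = 0.0201). Its second probe differed by −0.13 (adjusted p = 0.202). Class A thus held 4 rises and 1 fall among 7 probes, and Dnaja3, of mitochondria, was at −0.05 (adjusted p = 0.745).

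In class B, which includes heat-inducible J proteins, 0 of 15 probes passed. Their differences ran from −0.23 to 0.24. Dnajb1, the heat-inducible partner of HSP70, differed by 0.01 ± 0.07 (adjusted p = 0.932). Dnajb9 and Dnajb11, both of the ER lumen, had differences of 0.04 and 0.05 for the Dnajb9 probes and 0.12 for Dnajb11. Dnajb12 and Dnajb14, J proteins anchored in the ER membrane, had differences of 0.09 for Dnajb12 and −0.10 and −0.14 for the Dnajb14 probes. Dnajb4 was nearest to the threshold at 0.24 ± 0.08 (adjusted p = 0.0544).

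Class C, whose members share the J domain and little else, held 4 rises and 2 falls among 39 probes. Dnajc12, which in humans assists the aromatic amino acid hydroxylases, stood at −0.25, −0.27, −0.47 and −0.39 in R175Q, against −0.79, −0.76, −1.15 and −0.75 in wild-type cells. Its groups were separate, with a difference of 0.52 ± 0.10 (adjusted p = 0.00465). The other rises were of Dnajc3 and Dnajc10, described with the ER below, and of Dnajc15, a protein of the mitochondrial inner membrane. Dnajc15 stood at 0.11, 0.08, −0.03 and −0.08 in R175Q, against −0.15, −0.35, −0.48 and −0.23 in wild-type cells, and differed by 0.32 ± 0.08 (adjusted p = 0.021).

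The falls in class C were smaller. One probe of Dnajc5, the cysteine string protein of secretory vesicles, stood at 0.54, 0.53, 0.44 and 0.34 in R175Q, against 0.80, 0.68, 0.66 and 0.78 in wild-type cells, and fell by 0.27 ± 0.06 (adjusted p = 0.018). The other tested Dnajc5 probes differed by −0.22 (adjusted p = 0.0538) and −0.01 (adjusted p = 0.944). Dnajc4 fell by 0.21 ± 0.06 (adjusted p = 0.0298), with separate groups. Over all J proteins 8 probes rose and 3 fell of 61, or 18%, and their median difference was −0.02.

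The calls of both Dnaja4 probes, both Dnaja1 probes, Dnajc10 and Dnajc12 held whichever array was left out. Leaving out 1 array ended the call of Dnaja2 in 4 fits (R175Q replicates 1 or 3, wild-type replicates 1 or 4; −0.30 to −0.22 over the 8 fits), of Dnajc4 in 5 (R175Q replicates 2, 3 or 4, wild-type replicates 1 or 4; −0.24 to −0.18), of Dnajc5 in 2 (wild-type replicates 1 or 4; −0.29 to −0.23) and of Dnajc15 in 3 (R175Q replicates 1 or 2, wild-type replicate 2; 0.26 to 0.37).

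**Figure D2:**
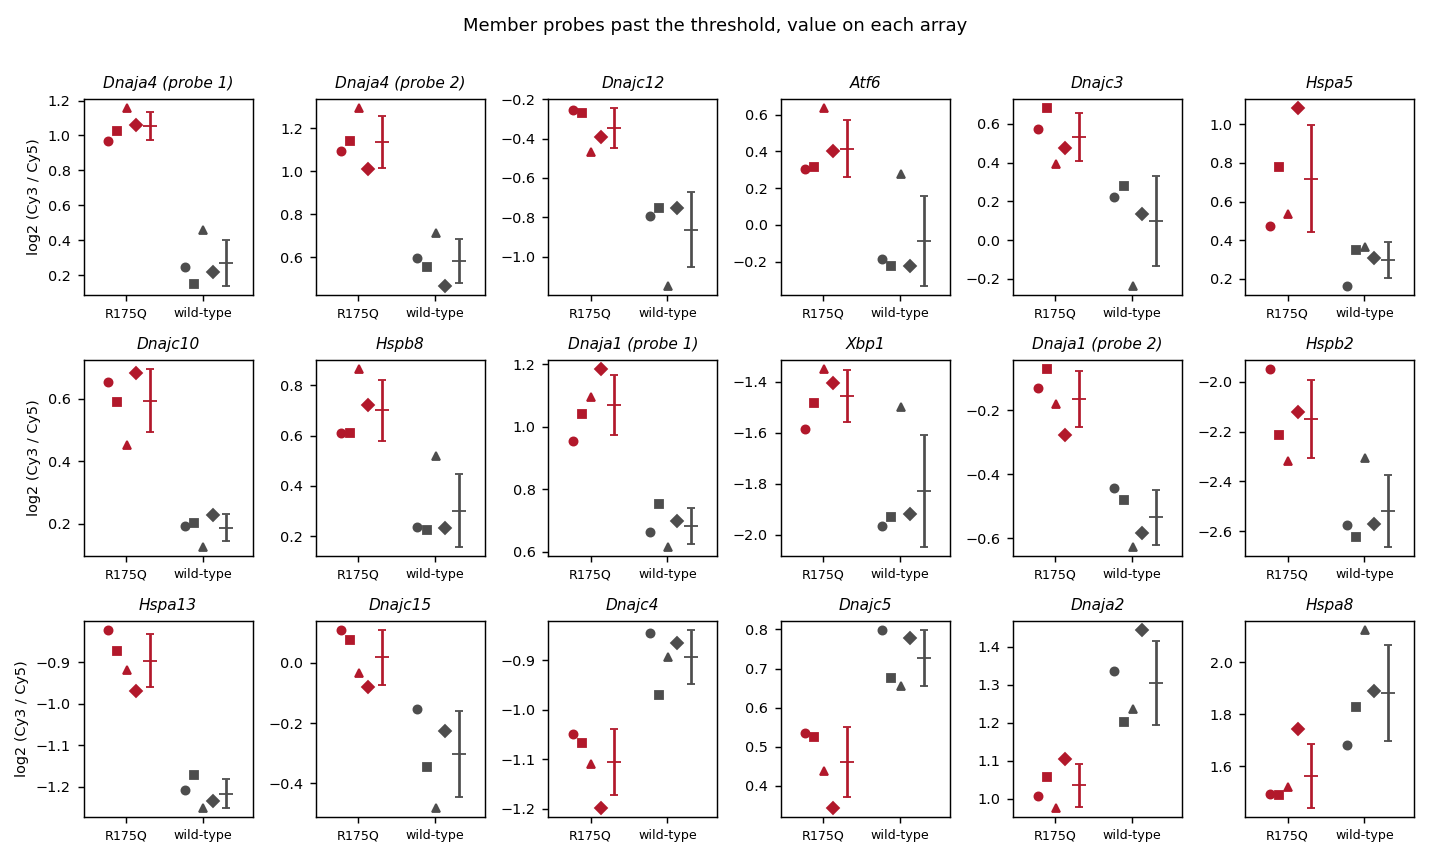
Each panel shows 1 of the 18 called member probes, with log2 of Cy3 over Cy5 on each array for R175Q (red, left) and wild-type (grey, right). Circles, squares, triangles and diamonds are replicates 1, 2, 3 and 4, and the bars are the mean and SD of 4 arrays. The groups overlap for Xbp1, Hspb2 and Hspa8 and are separate in the other 15 panels.

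In the ER, the genes with rises were the HSP70 protein BiP and its relatives and partners. Hspa5 stood at 0.47, 0.78, 0.54 and 1.08 in R175Q, against 0.16, 0.35, 0.36 and 0.31 in wild-type cells. The R175Q values were spread more widely (mean 0.72 ± 0.28, SD, n = 4) than the wild-type values (0.30 ± 0.09), with no overlap. The difference was 0.42 ± 0.12, or 1.34-fold (adjusted p = 0.0387), for a probe on chromosome 2 at 34631913 to 34631972.

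Dnajc10, or ERdj5, a J protein with thioredoxin domains that reduces disulfides, stood at 0.65, 0.59, 0.45 and 0.68 in R175Q, against 0.19, 0.20, 0.13 and 0.23 in wild-type cells, a difference of 0.41 ± 0.06 (adjusted p = 0.0017). A second Dnajc10 probe differed by 0.25 (adjusted p = 0.0712). Dnajc3, a J protein of the ER lumen also known to inhibit PERK, stood at 0.58, 0.68, 0.39 and 0.47 in R175Q, against 0.22, 0.28, −0.24 and 0.13 in wild-type cells. It differed by 0.43 ± 0.11 (adjusted p = 0.0242), with wild-type replicate 3 the lowest array. Hspa13, a short HSP70 relative associated with ER membranes, stood at −0.82, −0.87, −0.92 and −0.97 in R175Q, against −1.21, −1.17, −1.25 and −1.24 in wild-type cells. Its difference was 0.32 ± 0.05 (adjusted p = 0.00279), and its second probe differed by 0.24 (adjusted p = 0.0753).

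Other ER chaperones did not pass. Hsp90b1, or GRP94, stood at −0.24, −0.27, −0.49 and 0.03 in R175Q, against −0.50, −0.28, −0.58 and −0.40 in wild-type cells, and differed by 0.20 ± 0.11 (adjusted p = 0.25). Hyou1, a large HSP70 relative that releases nucleotide from BiP, differed by 0.0045 ± 0.07 (adjusted p = 0.976). Of the protein disulfide isomerases 0 of 5 tested probes passed, with a median difference of 0.22. Pdia3, which acts on glycoproteins, differed by 0.22 ± 0.12 (adjusted p = 0.247) and Pdia4 by 0.20 ± 0.07 (adjusted p = 0.0726). The Pdia6 probes differed by 0.27 and 0.28 (adjusted p = 0.119 and 0.109), and Pdia5 by −0.08 (adjusted p = 0.369). On the array of replicate 3 Pdia6 was lowest in both groups, and without R175Q replicate 3 both Pdia6 probes and Pdia4 passed, at 0.35, 0.39 and 0.26.

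The call of Hspa5 was lost without R175Q replicates 2 or 4 or wild-type replicates 1, 2 or 4 (differences over the 8 fits 0.30 to 0.50, highest adjusted p = 0.104), and that of Dnajc3 without R175Q replicates 1 or 2 or wild-type replicate 4 (0.32 to 0.49). Hspa13 and Dnajc10 kept theirs in all 8 fits, and Dnajc3 lost its with slide as a block, at 0.39 (adjusted p = 0.0862).

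Of the genes of the unfolded protein response itself, Atf6 and Xbp1 rose. Atf6 stood at 0.30, 0.31, 0.64 and 0.40 in R175Q, against −0.18, −0.22, 0.28 and −0.22 in wild-type cells, for a probe on chromosome 1 at 172635311 to 172635370. The difference was 0.50 ± 0.12, or 1.42-fold (adjusted p = 0.0178), and wild-type replicate 3 was far above the other wild-type arrays. Xbp1, with a probe on chromosome 11 at 5425816 to 5425875, stood at −1.58, −1.48, −1.35 and −1.41 in R175Q, against −1.97, −1.93, −1.50 and −1.92 in wild-type cells. The groups overlapped through wild-type replicate 3, and the difference was 0.37 ± 0.11 (adjusted p = 0.0345). Which spliced form the probe reads was not determined.

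The largest differences in the group belonged to PERK-ATF4 targets that did not pass. Ddit3, or CHOP, stood at 0.37, 0.35, 1.24 and 0.67 in R175Q, against −0.16, −0.54, 0.72 and −0.14 in wild-type cells, a difference of 0.69 ± 0.27 (adjusted p = 0.107). Trib3, a pseudokinase induced by ATF4 and CHOP, stood at 0.74, 0.76, 1.94 and 1.27 in R175Q, against 0.41, −0.06, 1.38 and 0.44 in wild-type cells, a difference of 0.64 ± 0.32 (adjusted p = 0.219). In each, replicate 3 of either group stood highest, and the groups overlapped through wild-type replicate 3.

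Atf3, a stress-induced transcription factor, stood at 1.09, 1.15, 1.72 and 1.34 in R175Q, against 0.79, 0.21, 1.46 and 0.71 in wild-type cells, a difference of 0.53 ± 0.23 (adjusted p = 0.151). Atf4 stood at −0.30, −0.21, 0.20 and 0.01 in R175Q, against −0.45, −0.49, 0.08 and −0.43 in wild-type cells, a difference of 0.25 ± 0.14 (adjusted p = 0.287). Here too replicate 3 was highest in each group. Herpud1 stood at 1.40, 1.58, 1.69 and 1.68 in R175Q, against 1.42, 1.22, 1.45 and 1.42 in wild-type cells, a difference of 0.21 ± 0.08 (adjusted p = 0.102), and overlapped through R175Q replicate 1. The sensor genes differed by 0.19 for Eif2ak3 (adjusted p = 0.32) and by 0.17 to 0.22 for the 4 probes of Ern1.

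In all, 2 of 12 tested probes of sensors, factors and outputs rose and 0 fell, or 16.7%, near the 18.6% of all probes. All 12 had a positive difference, as did 10502 of all 22849 probes, and their median was 0.23 against −0.016 over all probes. The 12 probes are of 9 genes, with 4 of Ern1, so they are not 12 separate results. Nor did the 9 genes vary separately. In Ddit3, Trib3, Atf3, Atf4, Atf6, Xbp1 and Herpud1 replicate 3 was the highest array of both groups. Leaving out wild-type replicate 3 brought Ddit3 (0.94, adjusted p = 0.0138) and Trib3 (0.92, adjusted p = 0.0462) past the threshold. Atf3 (0.76, adjusted p = 0.0168) and Atf4 (0.38, adjusted p = 0.0414) passed in that fit too. Without that array 22.8% of all probes and 22% of member probes passed, against 18.6% and 15.3% with all arrays. Leaving out R175Q replicate 1 brought Herpud1 past the threshold (0.28, adjusted p = 0.0423). Each of these genes passed in 1 of the 8 fits without 1 array. The call of Atf6 was lost without wild-type replicates 1, 2 or 4 (0.43 to 0.62 over the 8 fits) and that of Xbp1 in 6 of 8 fits (0.33 to 0.48), remaining without R175Q replicate 1 or wild-type replicate 3.

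**Figure D3:**
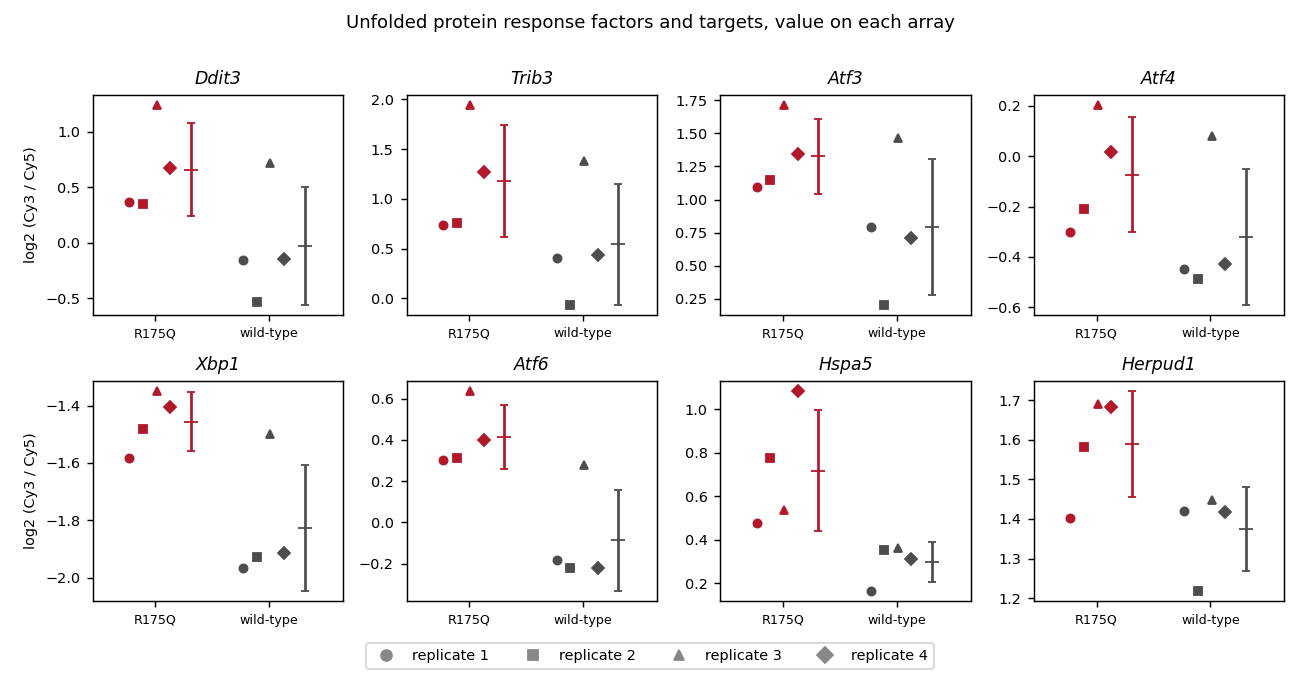
Values of 8 genes on each array, as log2 of Cy3 over Cy5, for R175Q (red, left) and wild-type (grey, right), with symbols for replicates 1 to 4 and bars for the mean and SD. For 7 of the 8 genes, all but Hspa5, the triangle, replicate 3, is the highest point of both groups.

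Over the HSP70 and HSP110 families as a whole, Hspa5 and Hspa13 included, 2 of 18 tested probes rose and 1 fell, and 12 had a negative difference, with a median of −0.09. One probe of Hspa8, the constitutive HSP70 of the cytosol, stood at 1.496, 1.491, 1.521 and 1.745 in R175Q, against 1.682, 1.829, 2.124 and 1.888 in wild-type cells. The groups overlapped between R175Q replicate 4 and wild-type replicate 1, and it fell by 0.32 ± 0.10 (adjusted p = 0.0477). The other Hspa8 probes differed by −0.29 and −0.23 (adjusted p = 0.152 and 0.33).

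Hsph1, an HSP110 protein that exchanges nucleotide on HSP70, stood at −0.35, −0.38, −0.53 and −0.44 in R175Q, against −0.27, −0.08, −0.24 and −0.26 in wild-type cells. Its groups were separate, and its difference of −0.21 ± 0.07 missed the threshold (adjusted p = 0.0502), which it passed under 7 of the alternatives tried. The second Hsph1 probe differed by −0.18 (adjusted p = 0.152), and its groups overlapped. Among relatives of the cytosol that did not pass either, the Hspa4 probes differed by 0.07, −0.09 and −0.05, Hspa4l by −0.09, Hspa2 by −0.20 and Hspa14 by −0.02. Hsp90aa1, the inducible cytosolic HSP90, stood at 1.26, 1.45, 1.41 and 1.64 in R175Q, against 1.53, 1.62, 1.63 and 1.72 in wild-type cells, and differed by −0.19 ± 0.08 (adjusted p = 0.159). Hsp90ab1, the constitutive form, differed by −0.19 ± 0.10 (adjusted p = 0.239). The probe named Hspa1a, a heat-inducible HSP70, differed by −0.11 ± 0.09 (adjusted p = 0.447), and the files list accessions of both Hspa1a and Hspa1b for it, so these copies cannot be told apart.

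Among small heat shock proteins, which hold unfolded clients without ATP, members lay on both sides. Hspb8, which works with Bag3 in autophagy of misfolded protein, stood at 0.61, 0.61, 0.87 and 0.72 in R175Q, against 0.24, 0.22, 0.52 and 0.23 in wild-type cells, and rose by 0.40 ± 0.09 (adjusted p = 0.0105). Hspb2, best known from muscle, stood at −1.95, −2.21, −2.32 and −2.12 in R175Q, against −2.58, −2.62, −2.31 and −2.57 in wild-type cells, and rose by 0.37 ± 0.10 (adjusted p = 0.0232). Its groups overlapped through R175Q replicate 3 and wild-type replicate 3. Hspb1, the heat-inducible HSP25 of mouse, stood at −0.40, −0.31, −0.20 and −0.10 in R175Q, against 0.07, −0.24, 0.17 and 0.24 in wild-type cells, and differed by −0.32 ± 0.11 (adjusted p = 0.0673). Without wild-type replicate 2 it passed, at −0.41 (adjusted p = 0.01).

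The call of Hspa8 was lost in 6 of the 8 fits without 1 array (−0.38 to −0.24), remaining without R175Q replicate 4 or wild-type replicate 1, and with slide as a block (−0.28, adjusted p = 0.115); that of Hspb2 was lost in 5, without R175Q replicates 1 or 4 or wild-type replicates 1, 2 or 4 (0.30 to 0.44), and with the slide block (0.30, adjusted p = 0.0989), while Hspb8 was called in all.

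No chaperonin probe passed. CCT is the ring in the cytosol that folds actin and tubulin, and 0 of its 8 tested probes passed, with a median difference of 0.01. Cct2, Cct3, Cct4, Cct5, Cct6a, Cct7 and Cct8 had differences between −0.06 and 0.03. Cct6b, a form described from testis, differed by 0.26 ± 0.09 (adjusted p = 0.0637) with separate groups. The 4 probes of the mitochondrial chaperonin genes Hspd1 and Hspe1 gave 0 calls, with differences of −0.09 for Hspd1 and 0.03, 0.08 and 0.23 for Hspe1. Hspa9, the HSP70 of mitochondria, differed by 0.12 ± 0.13 (adjusted p = 0.581).

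Slides differed between arrays, and 3 of the 4 held both groups. Slide 2 held R175Q replicate 2 and wild-type replicate 1, slide 3 held R175Q replicate 3 and wild-type replicates 2 and 3, and slide 4 held replicate 4 of each. R175Q replicate 1 was alone on slide 1. All 14 probes called higher were above wild-type within each of the 3 slides, and all 4 called lower were below. These probes were called from the same arrays, so their agreement in sign is not a separate check. Within slides 2, 3 and 4 the first Dnaja4 probe differed by 0.77, 0.85 and 0.84, and Hspa5 by 0.61, 0.18 and 0.77. Ddit3 differed by 0.50, 1.15 and 0.82, and Trib3 by 0.35, 1.28 and 0.83. Of the 12 probes of the unfolded protein response, 11 were above in all 3 slides and 0 below. Of the 118 member probes 36 were above in all 3 slides and 35 below, or 30.5% and 29.7%, against 26.2% and 32.2% of all probes tested.

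**Figure D4:**
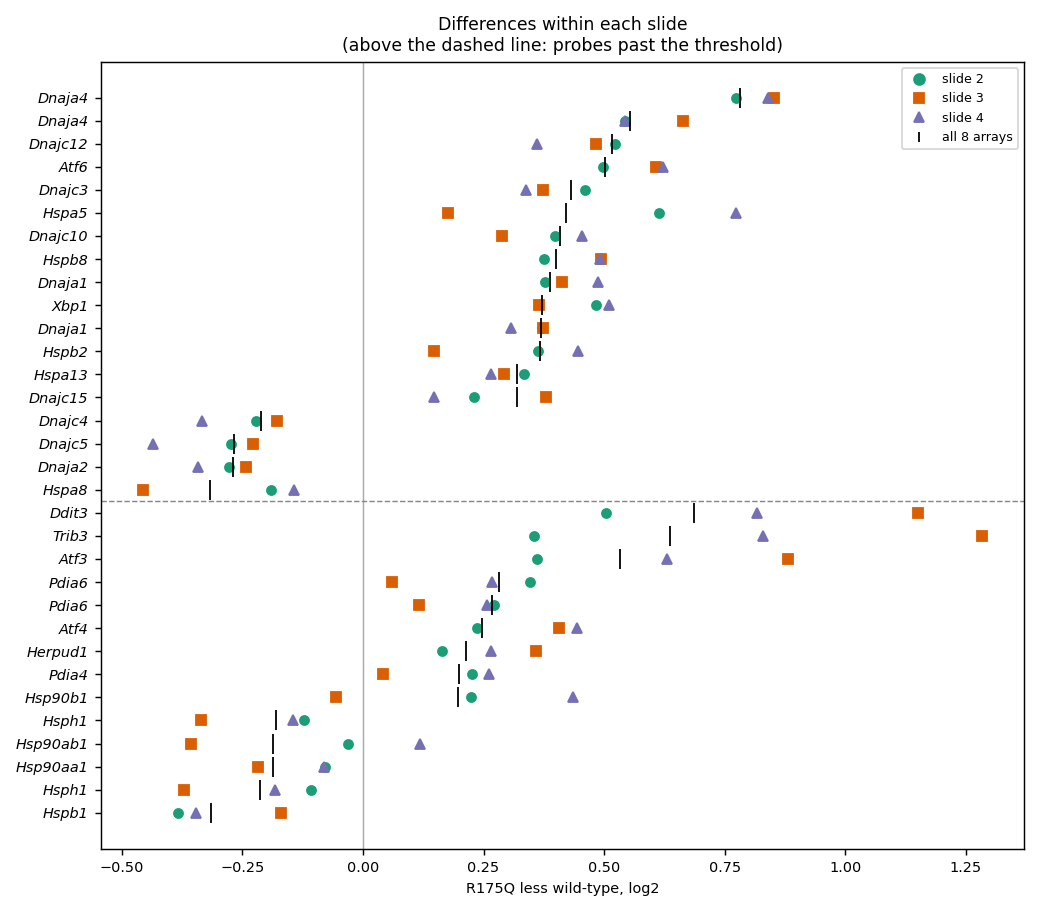
Differences, R175Q less wild-type on the log2 scale, within slides 2, 3 and 4 (coloured symbols) and over all 8 arrays (black ticks), for the 18 called member probes above the dashed line and 14 named probes that did not pass below it. The called probes keep 1 side of 0 in each slide, as do the probes that did not pass, except Hsp90b1 and Hsp90ab1.

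When slide entered the fit as a block, 13 of the 18 calls remained, the lost ones being Dnajc3, Dnajc4, Dnajc15, Hspb2 and Hspa8. With limma's default background fit, which placed the Cy3 background of R175Q replicate 4 at −690, 3 members rose and 1 fell, against 3.99% of all probes called, and the calls kept were those of the first Dnaja4 probe, the brighter Dnaja1 probe, Dnajc10 and Dnajc4.

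Other genes of the same pathways were read from 7 lists of 171 genes, chosen with earlier results of these data known. Of these genes, 168 had a tested probe. In all lists 28 of 224 probes rose and 4 fell, or 14.3%, against the 18.6% of all probes. ER folding and quality control stood above that share, with 14 of 37 probes higher and 0 lower, or 37.8%, and a median difference of 0.16. The 14 probes belonged to Fkbp7, Fkbp14, Uggt1, Uggt2, Ero1b, Sdf2, P4hb, Creld1, Lman1, Canx, Erp44 and Sdf2l1.

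Fkbp7 and Fkbp14 are prolyl isomerases of the ER. Fkbp7 stood at −1.78, −1.81, −1.79 and −1.80 in R175Q, against −2.36, −2.43, −2.41 and −2.32 in wild-type cells, and rose by 0.59 ± 0.05 (adjusted p = 4.84e-05). Fkbp14 stood at −1.39, −1.34, −1.41 and −1.37 in R175Q, against −1.97, −2.06, −1.91 and −2.03 in wild-type cells, and rose by 0.61 ± 0.06 (adjusted p = 5.41e-05). Uggt1 and Uggt2, which tag misfolded glycoproteins with glucose, rose by 0.38 ± 0.05 and 0.50 ± 0.07 (adjusted p = 0.000928 and 0.000816). All 4 probes had separate groups and were called in each fit without 1 array. A second tested probe of Uggt2 and of Fkbp14 rose by 0.32 and 0.45 (adjusted p = 0.0346 and 0.00521). The second Uggt1 probe differed by 0.11 (adjusted p = 0.229).

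In ER-associated degradation 6 of 39 probes rose and 0 fell, or 15.4%, with a median difference of 0.06. Sel1l, the scaffold of a ubiquitin ligase of the ER membrane, rose by 0.30 ± 0.06 (adjusted p = 0.00969). A probe each of Derl1 and Derl2, membrane proteins of the export channel, rose by 0.40 ± 0.09 and 0.25 ± 0.06 (adjusted p = 0.015 and 0.0203). The second Derl1 probe rose by 0.23 (adjusted p = 0.0389). The other Derl2 probes differed by 0.08 and 0.06 (adjusted p = 0.447 and 0.61). Selenos, named H47 in the files, rose by 0.32 ± 0.07 (adjusted p = 0.00785). The call of Derl2 was lost in 5 of the 8 fits without 1 array (0.21 to 0.29), those without R175Q replicates 1, 2 or 4 or wild-type replicates 1 or 4, and with slide as a block (0.27, adjusted p = 0.0556).

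Over the 48 tested probes of the PERK and integrated stress response list the median difference was 0.04, with 27 positive and 21 negative. The list held 1 rise, or 2.08%, below the share of all probes. That rise was of Stc2, a secreted glycoprotein, which stood at −1.74, −1.71, −1.31 and −1.70 in R175Q, against −2.56, −2.73, −2.18 and −2.63 in wild-type cells, and differed by 0.91 ± 0.13 (adjusted p = 0.00109). Cth, an enzyme of cysteine synthesis, differed by 0.88 ± 0.31 (adjusted p = 0.076) and passed without wild-type replicate 3, at 1.19 (adjusted p = 0.00525). Cdkn1a, a cell cycle inhibitor, and the lipoprotein receptor Vldlr differed by −0.33 and −0.57 (adjusted p = 0.0637 and 0.089). Cdkn1a passed without wild-type replicates 1 or 4, at −0.40 and −0.41 (adjusted p = 0.0476 and 0.0363). Vldlr passed without wild-type replicate 2, at −0.72 (adjusted p = 0.0346). Another probe each of Cth and Vldlr differed by 0.85 and −0.68 (adjusted p = 0.109 and 0.104).

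Among heat shock factors and cytosolic co-chaperones 3 of 43 probes rose and 2 fell, or 11.6%, with a median difference of −0.06. Sugt1, a co-chaperone of HSP90, rose by 0.43 ± 0.05 (adjusted p = 0.000389), and Cryab, a small heat shock protein gene that lies beside Hspb2, rose by 0.37 ± 0.06 (adjusted p = 0.00166). Cdc37l1 and Fkbp4, both partners of HSP90, fell by 0.27 and 0.23 (adjusted p = 0.0162 and 0.0229), the call of Fkbp4 being lost without R175Q replicates 1, 2 or 4 or wild-type replicates 2 or 4 (−0.27 to −0.20 over the 8 fits). With slide as a block neither was called, at −0.28 for Cdc37l1 and −0.21 for Fkbp4 (adjusted p = 0.059 and 0.0745).

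Mitochondrial proteostasis had 0 rises and 2 falls among 17 probes, or 11.8%. Grpel1, which exchanges nucleotide on Hspa9 protein, fell by 0.23 ± 0.05 (adjusted p = 0.0136), and the protease Htra2 fell by 0.21 ± 0.05 (adjusted p = 0.026). The peptidase subunit Clpp and the HSP90 relative Trap1 differed by −0.18 and 0.12 (adjusted p = 0.07 and 0.226). In the prefoldin list 3 of 21 probes rose, or 14.3%, namely Pfdn5, a prefoldin subunit, by 0.24, Tbce, a tubulin folding cofactor, by 0.24 and Pdrg1, a prefoldin-like protein, by 0.20, while Pfdn2 differed by 0.10 (adjusted p = 0.197). The call of Htra2 was lost without R175Q replicates 2, 3 or 4 or wild-type replicates 1 or 2 (−0.23 to −0.19 over the 8 fits). That of Tbce was lost without R175Q replicates 3 or 4 or wild-type replicates 1, 2 or 4 (0.20 to 0.28), and that of Pdrg1 in all fits but those without R175Q replicate 4 or wild-type replicate 2 (0.18 to 0.24). The slide block ended the calls of Htra2 (−0.21, adjusted p = 0.072), Pfdn5 (0.22, adjusted p = 0.069) and Pdrg1 (0.20, adjusted p = 0.111).

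Of the 19 probes for ATF6 and CREB3 factors and the proteases that cut them, 1 rose, or 5.26%, and the median difference was 0.02. Creb3l3, a membrane-bound factor best known in liver and gut, rose by 0.69 ± 0.18 (adjusted p = 0.022), a call lost without R175Q replicates 3 or 4 or wild-type replicates 1, 2 or 4 (0.57 to 0.87 over the 8 fits) and with slide as a block (0.76, adjusted p = 0.0571). A probe of Nfyb, a subunit of the factor that binds CCAAT, differed by −0.22 (adjusted p = 0.0992). The other Nfyb probes differed by −0.04 and −0.03 (adjusted p = 0.784 and 0.857). The site 1 protease gene Mbtps1 differed by 0.15 and Atf6b by −0.11 (adjusted p = 0.116 and 0.203).

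**Figure D5:**
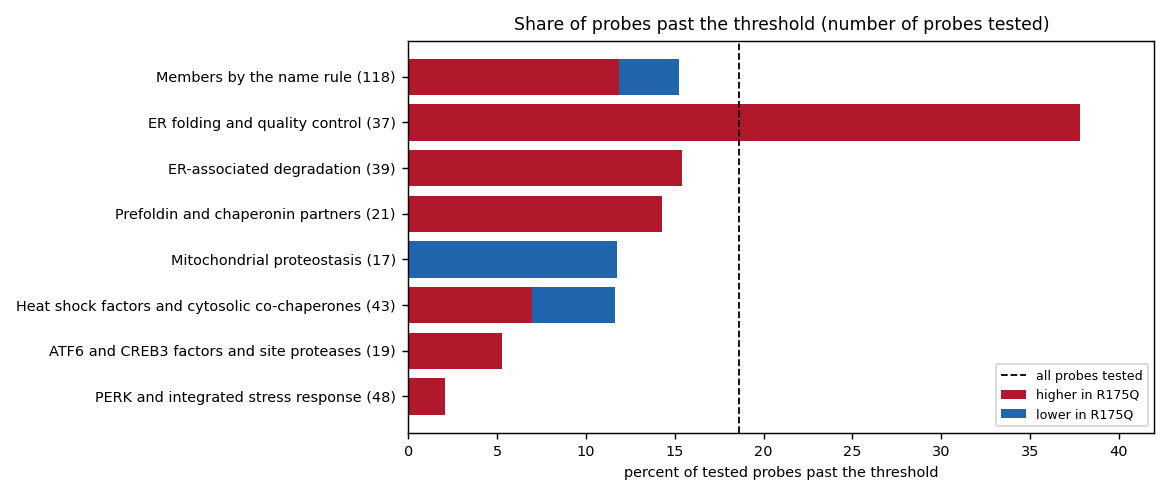
Percent of tested probes past the threshold, higher (red) and lower (blue) in R175Q, for the members chosen by name and for 7 lists of related genes, with the number of probes tested in brackets. The dashed line is the 18.6% of all probes tested. ER folding and quality control lies to the right of it at 37.8%, and the other bars lie to the left.

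Markers of cell types were read beside these results. All 9 tested probes of mammary and simple epithelium were well above background on all 8 arrays, and 4 of them fell. Krt7 fell by 1.89, Krt19 by 0.40 and the Krt8 probes by 0.21 and 0.31. Cdh1, Cldn7, Epcam, Esrp1 and Krt18 did not pass, at −0.002, −0.10, −0.26, 0.13 and −0.20. In the list 4 of 14 probes were above background on 0 arrays, those of Cldn3 and Cldn4 and further probes of Cldn7 and Esrp1. The mean log2 ratio per array of the 9 tested probes ran from 0.22 to 0.31 in R175Q and from 0.57 to 0.63 in wild-type cells. Of 7 tested fibroblast probes, 4 rose, those of Pdgfrb, Dcn, Col1a2 and Col3a1, and Lum was above background on 0 arrays. Their mean ran from −6.22 to −5.94 in R175Q and from −6.69 to −6.50 in wild-type cells.

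Of 11 tested macrophage probes 1 fell, that of Mrc1, and the mean ran from −3.16 to −2.98 in R175Q and from −3.15 to −2.94 in wild-type cells. Of 4 tested endothelial probes, 2 rose, both of Vwf, with means of −0.98 to −0.76 in R175Q and −1.28 to −1.04 in wild-type cells, while Cdh5, Cldn5 and Tek were above background on 0 arrays. Of 4 tested lymphocyte probes 0 passed, and Hba-a1, the tested red blood cell probe, rose. The part of these markers in the chaperone results was not tested, and in bulk RNA more or fewer cells of a type and more or less RNA per cell cannot be told apart.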

How the data were processed

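RNA of 8 samples was measured, and the labels gave the groups, 4 samples of ShcA R175Q and 4 of wild-type ShcA. RNA, from 1 to 2.5 ng, was linearly amplified in 2 rounds and 5 µg labelled, per the labels. The labels disagree on the reference, mouse in a field but human in the protocol for labelling. They also describe cultured cells while naming microdissected material, and neither point was settled.

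Per the file headers, the files came from Agilent Feature Extraction 9.5.3.1 and give spot means, local background medians and processed values as intensities, with a log10 ratio of Cy5 over Cy3. The authors' deposited value table holds log2 ratios, judged from its values to run as Cy3 over Cy5. The scanner's ratio was first turned to log2 of Cy3 over Cy5. Pearson's r of the deposited values with it across probes was 0.903 to 0.941 (slope 0.657 to 0.751, probes not being replicates). In R175Q the deposited table's medians per array, by replicate number, were 0.0585, 0.0562, 0.0607 and 0.0546, against 0.0524, 0.0617, 0.0592 and 0.0557 in wild-type cells. How that table was scaled and centred is not given in the sources used here.

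Of 44397 spots per array, 1377 were controls. Mean less local background intensity was background-corrected (normexp, offset 50), with the background level taken from the 153 negative control spots, then by loess within each array. The default fit put that level at −690 to −0.369 in Cy3, where negative controls had medians of 13.1 to 22.7. The filter on dim probes asked for 4 of 8 arrays well above the Cy3 background and kept 22971, less 122 marked unreliable on an array. Values are log2 of Cy3 over Cy5, tested with lmFit and eBayes of limma 3.58.1 (statmod 1.5.0, R 4.3.3), two-sided, with Benjamini-Hochberg adjustment over 22849 probes at 0.05. Every probe was kept on its own. Values after ± are standard errors unless named SD.

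The members and lists were chosen with earlier results of these data known. Named genes were the called members, principal chaperone and unfolded protein response genes, and 4 genes of each list with the lowest p. Each list gene was represented by its probe with the lowest p. Other probes of Fkbp14, Uggt1, Uggt2, Derl1, Derl2, Nfyb, Cth and Vldlr were added after their values were seen. Dnaja3, Dnajb4, Dnajb12, Dnajb14, Hspa2, Hspa4, Hspa4l, Hspa14, Pdia5, Cct6b, second probes of called genes, genes named for separate groups, and the list genes Ero1b, Sdf2, P4hb, Creld1, Lman1, Canx, Erp44 and Sdf2l1 were named after their values were seen. For 26761 of 28389 probes with a RefSeq accession the current symbol came from the GRCm38.p6 annotation. Probe positions were taken from the files (mm9), and exons or UTRs were not assigned. The alternatives were other backgrounds, scalings, filters, tests and blocks, the deposited table, 1 probe per gene and leaving out each array. The scripts were tested on simulated data in which chosen probes had been changed. Replicate numbers were not taken to pair the samples, and no array was left out.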

Additional observations from a re-analysis of the deposited data

Results flagged for a closer look

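In 13 of 118 groups of 4 arrays examined, an array stood apart from the other 3 by more than Dixon's 95% critical value for its gap over the range. Chance flags about 1 in 20 groups. Of the 13, 6 lay on wild-type replicate 3 and 3 on R175Q replicate 3.

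On wild-type replicate 3, Atf6 was 0.28 (the others −0.22 to −0.18), Xbp1 −1.50 (−1.97 to −1.92), Atf4 0.08 (−0.49 to −0.43) and Hspb8 0.52 (0.22 to 0.24), all high. Dnajc12 was −1.15 (−0.79 to −0.75) and a Pdia6 probe −0.01 (0.32 to 0.37), both low. On R175Q replicate 3 the same Pdia6 probe was 0.27 (0.58 to 0.63) and Pdia4 −0.08 (0.14 to 0.16), both low, and a Dnajb9 probe was 1.98 (1.72 to 1.75), high.

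A Hspa8 probe was 1.75 on R175Q replicate 4 (1.49 to 1.52), and a Hspe1 probe 0.07 on R175Q replicate 1 (−0.34 to −0.30). Herpud1 was 1.22 on wild-type replicate 2 (1.42 to 1.45) and Cct5 1.88 on wild-type replicate 4 (1.71 to 1.72). The cause was not tested for any of them.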

How the results depend on the processing

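As reported, R175Q had 14 higher and 4 lower member probes, with 2044 and 2211 of all probes and 28 and 4 of the list probes. With the default normexp background these counts were 3 and 1, 483 and 429, and 5 and 1, and adding slide as a fixed block gave 0 and 0, 0 and 1, and 0 and 0 (limma; at an unadjusted p under 0.05 10 and 8, 1088 and 1524, and 17 and 13). R175Q replicate 1 adds nothing to a difference fitted with the slide block, and fewer samples then bear on it. Array weights gave 23 and 23, 3826 and 4868, and 50 and 28. Member probes lower were 2 with median centring, the Cy3 channel alone, the brightest probe per gene and scan day as a block, and 8 with the deposited table. List probes higher were 18 with slide as a fixed block and 18 with the Cy3 channel alone. List probes lower were 7 with processed signals, the deposited table, the trended robust fit and slide as a random block, 1 with median centring, 2 with slide or scan day as a fixed block, and 0 with the Cy3 channel alone, which called 18 higher. Leaving out 1 array gave 9 to 20 member probes higher (9 without wild-type replicate 2) and 0 to 6 lower (0 without wild-type replicate 4, 1 without R175Q replicate 3, and 2 without R175Q replicate 1 or 2 or wild-type replicate 1), 1458 to 2691 of all probes lower, and 17 to 37 list probes higher and 2 to 9 lower. With the default background Hspb2, dim in Cy3, turned to −0.25, and to −0.37 with the slide block too. Among named probes, 1896 of the alternative values kept their side of the threshold, 196 lost the call, 60 gained it and 2 reversed. Direction was compared only for probes called as reported or in the alternative. Uncalled probes that changed sign thus count among the 1896, such as Cct2, at −0.02 to 0.07 over the fits without 1 array. The labels give no basis for pairing. Deviations of same-numbered arrays correlated at 0.301, 0.0162, 0.552 and 0.116, the second near 0, and 3 of 8 arrays correlated best with their own number. Replicate numbers were therefore not taken as pairs. A replicate block gave 23 member probes higher and 9 lower, 2493 and 2619 of all probes, and 41 and 11 of the list probes. By share, 27.1% of member probes and 22.4% of all probes passed. Under the replicate block Ddit3, Trib3, Atf3 and Atf4 passed (adjusted p = 0.001, 0.00265, 0.0145 and 0.0402). In all of these settings the median of all probes moved by less than 0.1. Normalization holds this median near 0, so its steadiness does not bear on the calls.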
